A study of Homo sapiens with 12 samples.

Results

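The immunoglobulin loci carry the genes of the antibody heavy chain (IGH, chromosome 14), the kappa light chain (IGK, chromosome 2) and the lambda light chain (IGL, chromosome 22). Binding of the transcription factor PAX5 to them was read from peak lists in 3 human lymphoma lines. The sites were chosen by a called peak in any of the 6 lists that overlapped chr14:106.00-107.30 Mb (IGH), chr2:89.10-90.30 Mb (IGK) or chr22:22.35-23.30 Mb (IGL) on the build hg19. The windows held 67 of 25380 peaks, which merged into 40 of the 14465 regions of all libraries: 13 in IGH, 10 in IGK and 17 in IGL.

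Raji and Namalwa, called the B-cell lines here, are untreated lines of Burkitt lymphoma, which arises from mature B cells. L428-PAX5 is a derivative of L428, a line of classical Hodgkin lymphoma, in which PAX5 overproduction was switched on with mifepristone 48 h before fixation. Each line gave 2 libraries precipitated with 1 antibody against PAX5 and 2 input libraries, 12 samples in all, and the 6 precipitated libraries have a peak list. No list of L428 without added PAX5 or of a second Hodgkin line was analysed here, so the effect of PAX5, of mifepristone and of the line itself cannot be told apart. Separate cultures are not stated for the libraries of a line, so spreads between them may be technical.

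Each immunoglobulin locus holds a long array of variable segments and a short part with joining and constant segments, with diversity segments between them in IGH. A developing B cell joins 1 segment of each kind, and enhancers near the constant part drive the joined gene. Known enhancers of IGH include those between the joining segments and the first constant gene and beyond the last constant gene. The light chain loci have enhancers beyond their constant part. PAX5 is the factor that commits cells to the B lineage, and it is known for its part in the joining and contraction of the IGH locus. The tumour cells of classical Hodgkin lymphoma derive from B cells, and most of them no longer make immunoglobulin.

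On hg19 the constant parts of IGH and IGK lie at the lower coordinates of their windows, and that of IGL at the upper end. Places are given here from approximate borders of hg19, set by hand and rounded to 10 kb, since no annotation of that build was at hand. They put the IGH constant part between 106.05 and 106.33 Mb and its variable part above 106.40 Mb. In IGK the constant part was placed between 89.15 and 89.16 Mb, and the variable segments between 89.17 and 89.64 Mb and between 89.89 and 90.28 Mb. In IGL the variable part ran from 22.38 to 23.23 Mb and the joining and constant part from there to 23.27 Mb. In the RefSeq table of GRCh38.p14, used for gene order alone, the functional IGH constant genes follow each other from the lower side as IGHA2, IGHE, IGHG4, IGHG2, IGHA1, IGHG1, IGHG3, IGHD and IGHM. No single peak was assigned to a gene or enhancer, to an exon or an intron.

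Peaks in the immunoglobulin windows made up a larger share of the B-cell-line lists than of the L428-PAX5 lists. Raji libraries 1 and 2 had 8 of 2619 peaks (0.305%, exact 95% interval 0.132 to 0.601%) and 19 of 4960 peaks (0.383%, 0.231 to 0.598%) there. In Namalwa the numbers were 25 of 6241 peaks (0.401%, 0.259 to 0.591%) in library 1 and 6 of 2107 (0.285%, 0.105 to 0.619%) in library 2. L428-PAX5 had 7 of 6201 peaks (0.113%, 0.0454 to 0.232%) in library 1 and 2 of 3252 (0.0615%, 0.00745 to 0.222%) in library 2. Every B-cell-line share was thus above both L428-PAX5 shares, although the intervals of Raji 1, Raji 2 and Namalwa 2 overlapped an L428-PAX5 interval.

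The mean share was 0.343% ± 0.057 (SD, n = 4 libraries, 2 each of Raji and Namalwa) for the B-cell lines. For L428-PAX5 it was 0.0872% ± 0.0363 (SD, n = 2 libraries of the same line). The difference, L428-PAX5 minus B-cell lines, was -0.256 percentage points (two-sided exact permutation p = 0.0667, the smallest that 15 choices of 2 from 6 libraries allow, so the design cannot reach 0.05). The test takes libraries and not lines as units, so its p does not measure the spread between lines. The windows were chosen with results of these lists known. The shortest list held 2107 peaks. With each list limited to that many of its best peaks, both Raji libraries had 6 peaks in the windows, Namalwa had 5 and 6, and L428-PAX5 had 2 and 1. The intervals cover counting error over peaks only, and they overlap between all 6 libraries at equal list length.

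**Figure D1:**
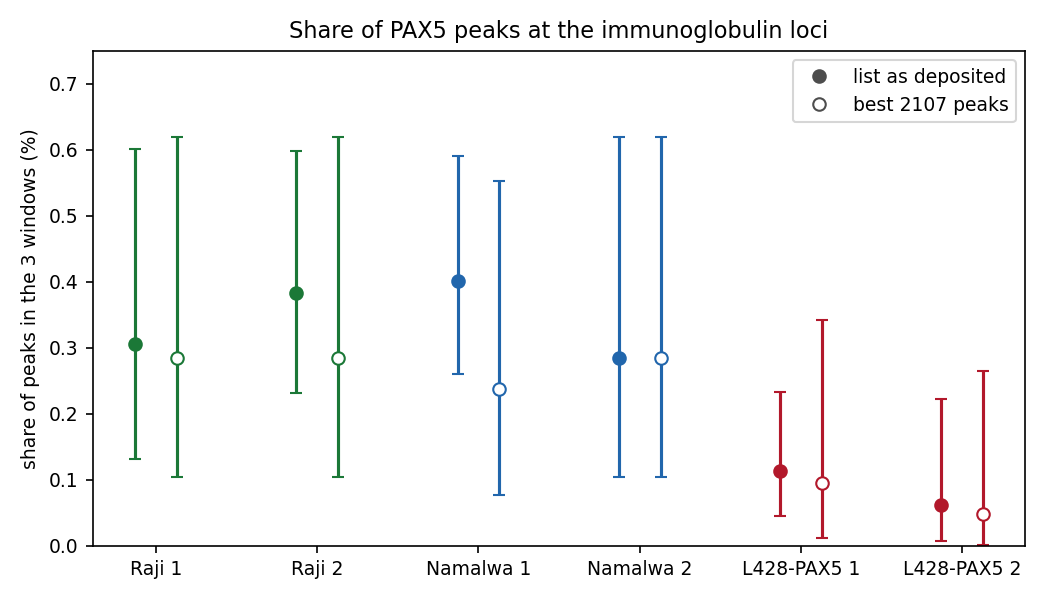
Share of peaks (%, y axis) in the 3 immunoglobulin windows for each library (x axis), for the lists as deposited (filled) and for the best 2107 peaks of each list (open), with exact 95% binomial intervals as bars. The deposited B-cell-line lists lie between 0.285 and 0.401%, and the L428-PAX5 lists at 0.113 and 0.0615%.

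Per Mb, the B-cell-line lists held 2.56 to 3.59 times as many peaks in the windows as over the chromosomes as a whole. In L428-PAX5 this ratio was 1.01 in library 1 and 0.552 in library 2. The windows span 3.45 Mb. The copy number of the windows in these lines was not measured.

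Across the 40 regions, 34 had a peak in a B-cell-line library (85%, against 60.3% of all regions) and 7 in an L428-PAX5 library (17.5%, against 47.6%). Of these, 33 had a peak in a B-cell-line library and none in L428-PAX5 (82.5%, against 52.4% of all regions). The other 6 had a peak in L428-PAX5 alone (15%, against 39.7% of all regions), and 1 had peaks in both kinds of line (2.5%, against 7.9%). A region with a peak in both libraries of a line is called reproducible in that line. Raji had 8 such immunoglobulin regions (20%, against 15.1% of all regions), Namalwa 6 (15%, against 13%) and L428-PAX5 2 (5%, against 17.2%). Of the 40, 11 were reproducible in a B-cell line and had no L428-PAX5 peak (27.5%, against 17.3% of all), and the 2 reproducible in L428-PAX5 were absent from all B-cell-line lists (5%, against 14.1%). None was reproducible in L428-PAX5 and in a B-cell line (0 of 40, against 1.89% of all regions). Since the presence of peaks chose the regions, these counts are a description and carry no test. Of the 7 L428-PAX5 regions, 5 had a peak in library 1 and not in library 2, and none had one in library 2 alone. The 2 in both libraries are 28.6% of the 7 (exact 95% interval 3.67 to 71.0%), against 36.1% of all regions with an L428-PAX5 peak.

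Of the 13 IGH regions, 9 had a B-cell-line peak and 5 an L428-PAX5 peak, against 60.3% and 47.6% of all regions. All 10 IGK regions had B-cell-line peaks and none had an L428-PAX5 peak. In IGL, 15 of 17 regions had a B-cell-line peak and 2 an L428-PAX5 peak, both in library 1 alone. These counts are small, and a difference between the loci was not tested. The L428-PAX5 peaks nearest to the IGK window ended 172 kb below it and began 182 kb above it.

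**Figure D2:**
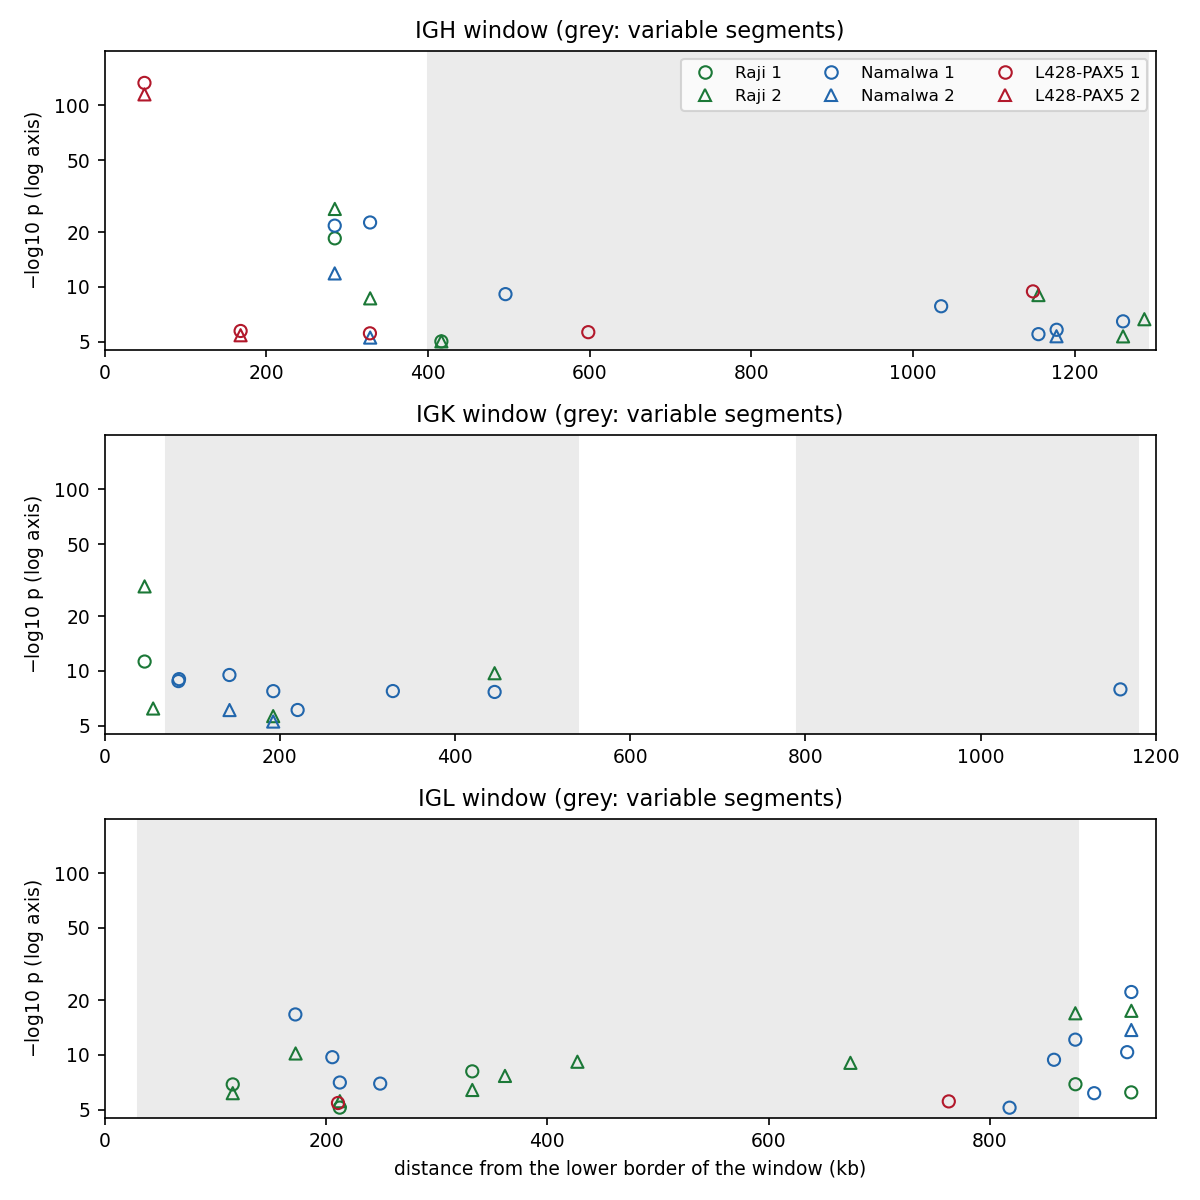
Each immunoglobulin peak by its distance from the lower border of its window (x axis, kb) and its −log10 p (y axis, log scale), with colour for the line, circles for library 1, triangles for library 2 and grey for the approximate variable parts. The L428-PAX5 pair near the lower border of IGH stands at 133.0 and 115.0, and the highest B-cell-line peak of any window is at 29.2.

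The strongest immunoglobulin site of all lists lay just below the IGH constant part and was found in L428-PAX5 alone. This region, chr14:106048910-106049513, had a −log10 p of 133.0 in L428-PAX5 1 and of 115.0 in L428-PAX5 2. It ranked 3 of 6201 and 3 of 3252 in these lists, whose median −log10 p was 7.38 and 7.05. The peak centres of the libraries lay 3 bp apart. The nearest B-cell-line peak lay 235 kb away, and the nearest other L428-PAX5 peak was 101 kb away. Among the 2043 regions of both L428-PAX5 libraries without a B-cell-line peak, it ranked 2 by mean percentile of p. This site was known as a strong L428-PAX5 site when the windows were chosen. Its rank and its absence from the B-cell-line lists are thus a description. The percentile places each p-value within its list, with 100 for the strongest peak, and is used because −log10 p moves with the depth of a library.

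The other reproducible L428-PAX5 region lay 118 kb further up, within the IGH constant part. At chr14:106167952-106168344 the −log10 p was 5.72 in library 1 and 5.42 in library 2, close to the weakest value of any list (5.01). Its mean percentile was 16.9, against 99.9 for the site below the constant part, so the L428-PAX5 pair of sites stood near opposite ends of their lists. It was number 1976 of the 2043 L428-PAX5 regions without a B-cell-line peak. Neither site had a peak in Raji or Namalwa. Whether the L428-PAX5 pair of sites lies in like sequence was not tested.

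Both B-cell lines shared a strong site within the IGH constant part, towards the joining segments. The region chr14:106284206-106285052 had a −log10 p of 18.5 in Raji 1, 26.9 in Raji 2, 21.8 in Namalwa 1 and 11.9 in Namalwa 2. Its percentile was 93.5 and 94.7 in Raji and 89.0 and 79.5 in Namalwa, and neither L428-PAX5 library had a peak there. It was 1 of 2 immunoglobulin regions reproducible in both B-cell lines (5% of the 40, against 6.68% of all regions). Both of these had no L428-PAX5 peak (5%, against 4.8% of all regions). At the IGH site the 4 peak centres lay within 106 bp.

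A single region had peaks of both B-cell lines and of L428-PAX5. It lay at chr14:106327610-106328624, at the upper end of the IGH constant part next to the joining segments, the stretch in which the intronic heavy chain enhancer is known to lie. Its −log10 p was 22.7 in Namalwa 1, 8.65 in Raji 2, 5.55 in L428-PAX5 1 and 5.26 in Namalwa 2, with no peak in Raji 1 or L428-PAX5 2. By percentile it was high in Namalwa 1 (90.1), near the middle of the list in Raji 2 (52.3), and low in L428-PAX5 1 (15.9) and Namalwa 2 (6.81). In lists of equal length it was found in the Namalwa libraries alone. The peak centres spread over 317.5 bp, the widest spread among the 18 regions with peaks in 2 or more libraries.

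In the IGH variable part no region was found in more than 2 libraries, and no peak had a −log10 p above 9.45. The array held 9 regions, 7 with B-cell-line peaks and 2 with a peak of L428-PAX5 1. Reproducible in Raji was chr14:106416308-106416588, near the lower end of the variable part, with a −log10 p of 5.01 in both libraries and a mean percentile of 0.443. Reproducible in Namalwa was chr14:107176826-107177663, with 5.81 in library 1 and 5.35 in library 2. Raji 2 and Namalwa 1 shared chr14:107154281-107155536 (9.02 and 5.49) and chr14:107259181-107259978 (5.34 and 6.46) near the upper end. These values place all 4 regions at a mean percentile of 32.9 or lower.

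The highest L428-PAX5 value in the variable segments was 9.45 in library 1, at chr14:107147651-107148559. It stood at percentile 69.8 of its list and lay 5.72 kb below the shared site of Raji 2 and Namalwa 1 at the upper end, and L428-PAX5 2 had no peak there. The other region of L428-PAX5 1 had 5.63 at chr14:106597902-106598395. The 3 regions left in this array, found in Namalwa 1 or Raji 2 alone, had values of 6.64 to 9.13, at percentiles of 31.4 to 54.2.

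The kappa locus had its strongest site just below the constant part, in Raji. At chr2:89145351-89145820 the −log10 p was 11.3 in Raji 1 and 29.2 in Raji 2, the latter the highest value of any B-cell-line peak in the windows, at rank 200 of 4960. Namalwa had no peak in this region. Textbook maps place the enhancer downstream of the kappa constant gene on this side of the locus, but whether the peak covers it was not tested. A further Raji 2 peak lay in the constant part at chr2:89155079-89155639 (6.21).

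Namalwa peaks in IGK all lay among the variable segments. Both Namalwa libraries had a peak at chr2:89242223-89242797, with a −log10 p of 9.49 in library 1 and 6.09 in library 2. They also shared chr2:89292073-89292711, with 7.74 and 5.26, where Raji 2 had 5.63. Raji 2 and Namalwa 1 had peaks at chr2:89545027-89545351, with 9.71 and 7.66. The remaining 5 regions were found in Namalwa 1 alone, with values between 6.09 and 9.01. Of the 8 regions among the variable segments, 7 lay in the cluster next to the constant part and 1 in the far cluster, at chr2:90259463-90259863 (7.91). None lay between the clusters. Whether reads can be mapped between the clusters, or told apart from one cluster to the other, was not tested. These counts thus do not show where binding is absent.

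The lambda locus had its most widely found site beyond the constant part. The region chr22:23277634-23278139 had a −log10 p of 6.21 in Raji 1, 17.5 in Raji 2, 22.2 in Namalwa 1 and 13.7 in Namalwa 2, and no peak in L428-PAX5. It is the other region reproducible in both B-cell lines. The percentile was 86.0 to 89.6 in 3 of the libraries and 28.7 in Raji 1. The lambda enhancer downstream of the constant genes is known to lie on this side, and whether the peak covers it was not tested. Namalwa 1 had a neighbouring peak at chr22:23273953-23274370 (10.3), 3.26 kb below it.

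A second lambda site stood next to the joining and constant part, 2.34 kb below the rounded border used for it. At chr22:23227109-23227659 the −log10 p was 6.89 in Raji 1, 16.9 in Raji 2 and 12.1 in Namalwa 1. Within the joining and constant part the list of Namalwa 1 had a wide, weak peak (6.15) at chr22:23243679-23245044, and no other library had one.

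The lambda variable part held 14 regions, 9 of them with a peak in 1 library. Raji libraries 1 and 2 shared chr22:22465402-22466110 (6.88 and 6.15) and chr22:22682087-22682447 (8.11 and 6.41). At chr22:22562278-22562819 they had 5.12 and 5.56, and Namalwa 1 had 7.04. L428-PAX5 1 had a peak of 5.43 at chr22:22560717-22561050, separated from that region by 1.23 kb and thus counted apart. Apart from the site next to the joining and constant part, the highest value of the variable part was at chr22:22522051-22522942, with 16.7 in Namalwa 1 and 10.2 in Raji 2. The IGL window also spans genes that are no part of the lambda chain, such as VPREB1, which codes for a part of the surrogate light chain of early B cells. Parts were set by position alone, so a region at such a gene is counted in the variable part here.

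**Figure D3:**
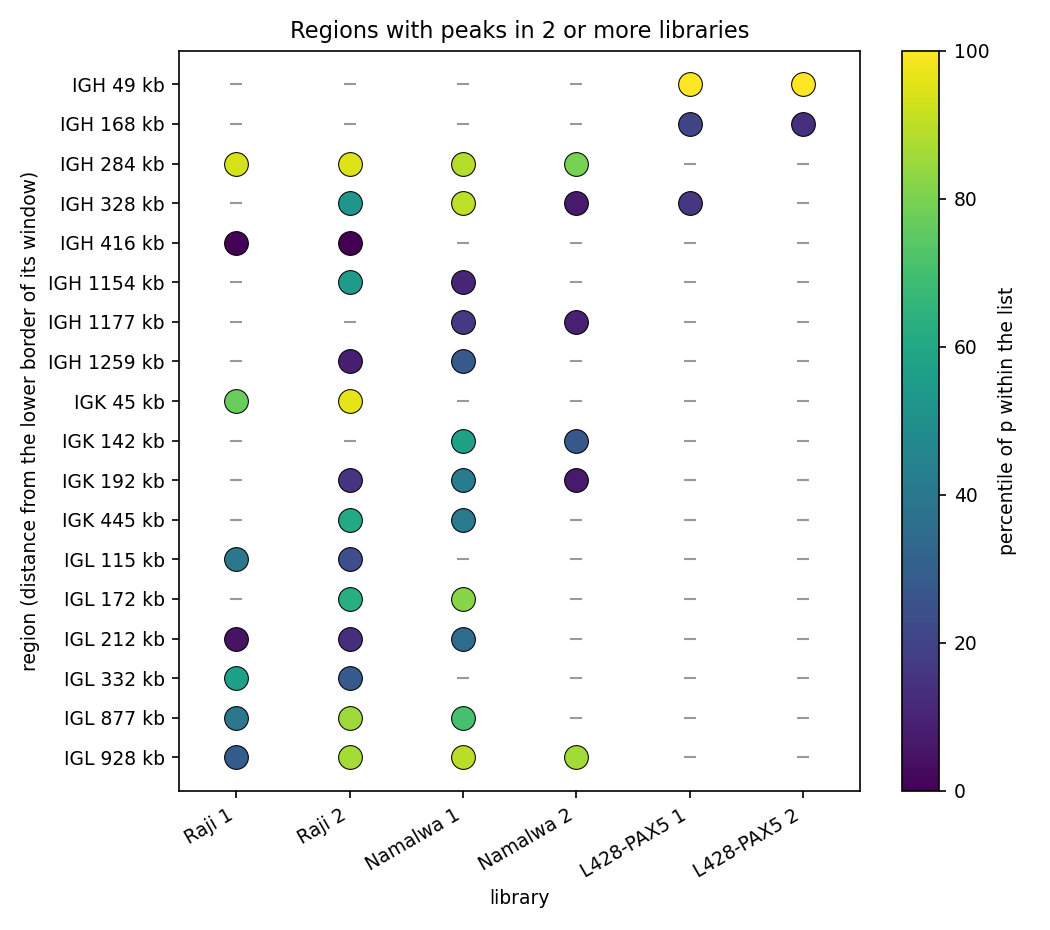
The 18 regions with peaks in 2 or more libraries (y axis, locus and distance from the lower border of its window in kb) against the 6 libraries (x axis), with the percentile of p within the list as colour and a dash where a list had no peak. L428-PAX5 shares a row with a B-cell line once, at 328 kb in IGH, and 4 rows hold Raji 2 and Namalwa 1 alone.

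The median B-cell-line peak was stronger outside the variable arrays than within them, though single sites went against this order. Outside the variable parts there were 9 regions on 600 kb, 15 per Mb. Of these, 6 had peaks in 2 or more libraries and 3 a peak in 1. The variable parts, with the stretch between the kappa clusters, held 31 regions on 2850 kb, 10.9 per Mb. Of these, 12 had peaks in 2 or more libraries and 19 a peak in 1. Over all regions, 55.1% had a peak in 1 library, and a difference between the parts was not tested. How much of the 2850 kb can be mapped was not tested either. The median percentile of the peaks outside the variable parts was 77.3 in Raji 1, 86.3 in Raji 2, 89.0 in Namalwa 1 and 79.5 in Namalwa 2. Among the variable segments it was 39.6, 37.5, 42.4 and 9.30 in the same order. Each B-cell-line library thus had the higher median outside the variable parts, over 3 to 5 peaks there. Within the variable parts, chr22:23227109-23227659 reached a percentile of 85.3 and chr22:22522051-22522942 one of 82.3, and outside them the Raji 2 peak in the IGK constant part stood at 24.4. In L428-PAX5 1 the medians were 19.9 outside, over 3 peaks, and 16.6 within, over 4 peaks, and L428-PAX5 2 had no peak in the variable parts.

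Over all their peaks in the windows, the median strength overlapped between the lines. The median percentile was 39.7 in Raji 1, 52.3 in Raji 2, 43.4 in Namalwa 1, 18.2 in Namalwa 2, 18.5 in L428-PAX5 1 and 56.9 in L428-PAX5 2, the last over 2 peaks. The mean of these medians was 38.4 ± 14.5 (SD, n = 4 libraries, 2 each of Raji and Namalwa) for the B-cell lines. For L428-PAX5 it was 37.7 ± 27.2 (SD, n = 2 libraries of the same line). The difference of -0.707, L428-PAX5 minus B-cell lines, was smaller than either spread (two-sided exact permutation p = 1). Its sign changed when each list was limited to its best 2107 peaks (30.8, p = 0.267 by the same exact test). L428-PAX5 then had 2 and 1 peaks in the windows, with the site below the IGH constant part among them in each library. The difference moved the other way for the peaks outside the variable parts, over 2 to 5 peaks a library. The mean there was 38.4 in L428-PAX5 and 83.0 in the B-cell lines. That is a difference of -44.6 (p = 0.0667 by the same exact test, the smallest it allows). In the variable parts alone the difference was -15.6, with L428-PAX5 1 as the only L428-PAX5 library. In L428-PAX5 2 the median is the midpoint of 2 peaks at percentiles of 99.9 and 13.9. Strong L428-PAX5 peaks were known when the windows were chosen. The percentile differences are thus a description, and their p-values support no conclusion.

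**Figure D4:**
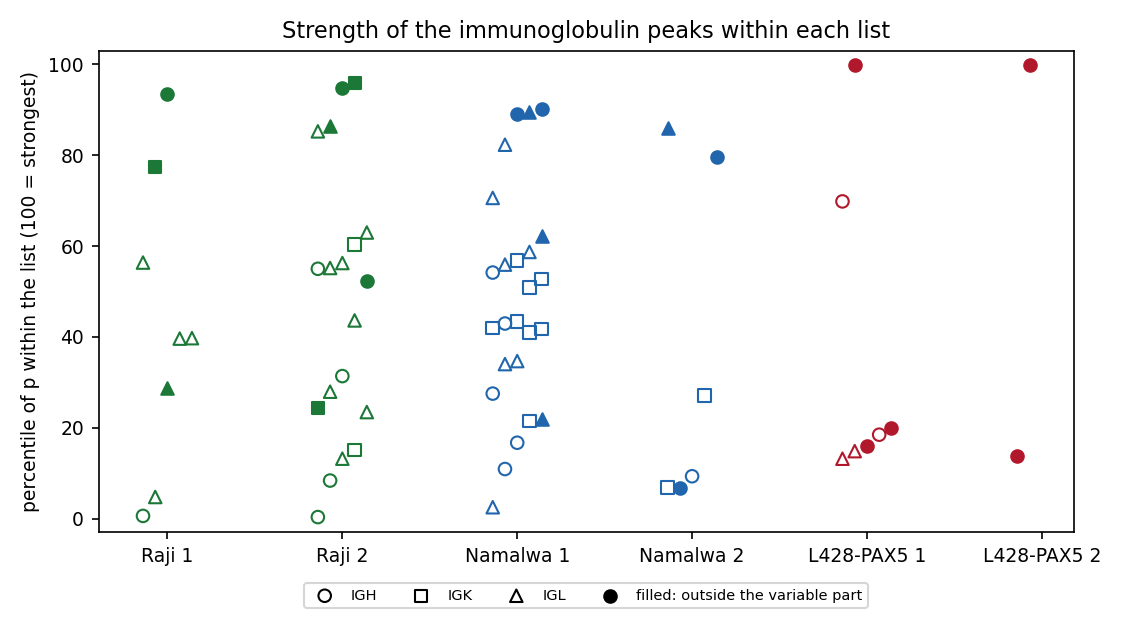
Percentile of p within the list (y axis, 100 for the strongest) of every immunoglobulin peak in each library (x axis), with the marker shape for the locus and filled markers for peaks outside the variable part. In L428-PAX5 1 the site below the IGH constant part is at 99.96 and 5 of the other 6 peaks lie at 19.9 or lower.

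List length moved with the number of regions found once. All 22 immunoglobulin regions with a peak in 1 library came from the longer list of a line: 13 from Namalwa 1, 5 from Raji 2 and 4 from L428-PAX5 1. Over all regions, 87.5% of those in 1 library came from these 3 lists. By list, Namalwa 1 gave 59.1% of the 22, against 31.5% of all regions in 1 library. Raji 2 gave 22.7%, against 17.6%, and L428-PAX5 1 gave 18.2%, against 38.5%. The share of regions in 1 library was 55% in the immunoglobulin windows and 55.1% over all regions. A region absent from a shorter list may lie below its threshold, and read depth is unknown.

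The windows were set by round coordinates, and some sites lay just outside them. Both Namalwa libraries had a peak at chr2:89053693-89054323, 45.7 kb below the IGK window, with −log10 p between 10.7 and 25.2. The nearest member inside that border was the Raji site below the constant part. Above the IGL window both Namalwa libraries had a peak 77.9 kb away, at chr22:23377910-23378502 (5.35 to 10.5), and below the IGH window L428-PAX5 1 had 1 peak 52.3 kb away (5.01).

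The T-cell receptor loci, the other loci built from variable and joining segments, were the nearest comparison. Windows around TRA/TRD, TRB and TRG, 1.6 Mb in all and also set by hand, held 6 regions. All had a B-cell-line peak and 1 an L428-PAX5 peak, against 60.3% and 47.6% of all regions. Of the 6, 3 were reproducible in both B-cell lines, against 6.68% of all regions. None was reproducible in L428-PAX5, against 17.2%. The B-cell-line libraries had 3 to 5 peaks there, 1.88 to 3.13 per Mb, against 1.74 to 7.25 per Mb in the immunoglobulin windows. Namalwa 2 had more peaks per Mb there (2.5 against 1.74). The highest −log10 p there was 42.3 in Namalwa 1 and 36.4 in Namalwa 2, above their highest immunoglobulin values (22.7 and 13.7). In Raji 1 and Raji 2 it was 9.39 and 9.24, below theirs (18.5 and 29.2). L428-PAX5 had 0 and 1 peak. Both kinds of locus thus held B-cell-line peaks and few L428-PAX5 peaks, over only 6 regions in the T-cell receptor windows. The difference between them was not tested.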

How the data were processed

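Peaks were listed by the authors for each of the 6 precipitated libraries separately. Per the submitters' processing notes, hg19, BWA 0.5.9-r16 and CASAVA 1.3 and 1.8 were used. The deposited lists give position, a name carrying PeakRanger (a peak caller) and 1 p-value per peak, a unit read from the values, all under 1e-05. Not given in the sources used here are caller settings, the use of input, adjustment of the p-value and whether starts count from 0 or 1. Input libraries were not analysed here, and no filter for repeats was applied.

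Peaks that overlapped by at least 1 bp or touched were merged across libraries. Ranks and percentiles of p were taken within each list, with ties at their mean percentile and their lowest rank. Shares carry exact (Clopper-Pearson) 95% intervals. Line differences were tested by exact permutation over libraries, which takes the libraries and not the lines as units. Background shares are over all 14465 regions. Peaks per Mb use the largest peak end as chromosome length. Regions with peaks in 2 or more libraries were named, and values per library given for those in both libraries of a line; others were chosen after their values were seen. The windows and lists of regions were chosen with earlier results of these data known. No sequence is shown, since no hg19 genome was used here. Merging and counting were tested on simulated lists. Scripts ran in Python 3.11.15 with scipy 1.17.1, pandas 2.3.3, numpy 2.4.6 and matplotlib 3.10.9.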

Additional observations from a re-analysis of the deposited data

How the results depend on the processing

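The share difference, L428-PAX5 minus B-cell lines, kept its sign in all 12 alternatives, from -0.289 with windows wider by 100 kb to -0.0545 percentage points without the variable parts, and from -0.282 to -0.231 with each library left out. No setting can bring its exact p under 0.05. With the replicate block, permuting among libraries of the same number, the share difference of -0.256 had an exact permutation p of 0.111 and the percentile difference of -0.707 an exact p of 1, where 9 choices allow no less than 0.111. The labels do not say that numbers pair the libraries. The percentile difference reversed to 43.7 in the better 50% of each list and to 30.8 in equal-length lists. L428-PAX5 had 2 and 1 peaks in the windows in either setting. With a library left out, the difference ran from -19.9 to 18.5 (3.92 without Raji 2, 0.969 without Namalwa 1, 18.5 without L428-PAX5 1), so its sign rests on single libraries. It was -44.6 without the variable parts and -15.6 in the variable parts alone. The cause was not tested.

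Counts fell by construction with fewer peaks or bases. In the better 50% of each list there were 20 regions, 2 in both Raji, 2 in both Namalwa and 1 in both L428-PAX5 libraries, the last without a B-cell-line peak, and 3 reproducible in a B-cell line without an L428-PAX5 peak. In equal-length lists these were 14, 4, 3, 1, 1 and 5. Without the variable parts they were 9, 3, 3 and 3 (any library, Raji, Namalwa, B-cell line without L428-PAX5), and in the variable parts alone 0 in L428-PAX5, 3 in Namalwa and 5 in Raji, the 0 with or without the B-cell lines. With a library left out, 1 list suffices in its line. Regions then numbered 27 (without Namalwa 1) to 40, those of both Raji libraries 8 to 19 (without Raji 1), Namalwa 6 to 25 (without Namalwa 2), L428-PAX5 2 to 7 (without L428-PAX5 2) and 2 to 6 of these without a B-cell-line peak. Those of a B-cell line without L428-PAX5 ran from 11 to 28 (20 without Raji 1, 28 without Namalwa 2), and those reproducible in L428-PAX5 and a B-cell line from 0 to 1 (without L428-PAX5 2). Other overlap rules and wider windows moved no count by over 1.5 times.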
